A study of Homo sapiens with 7 samples.

Results

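The S100 calcium-binding protein genes taken as members here were S100A2, S100A3, S100A4, S100A6, S100A10, S100A11, S100A13, S100A16 and S100P. This list is part of the family and was set with earlier results of these data known. A further 11 S100 genes with a probe are described below. The members were matched by gene symbol in the annotation of the array, and every probe of each gene was taken. This gave 9 genes with 16 probes, out of 20045 genes with a probe and 47230 probes on the array. S100A13 had 6 probes, S100A4 and S100A10 had 2 probes each and each other gene had 1 probe.

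RNA was measured in 7 lines of HT1080 cells, a highly invasive human fibrosarcoma line, on HumanHT-12 v4 BeadChips with 1 array per line. PTK7 is a catalytically inert receptor tyrosine kinase of Wnt and planar cell polarity signaling that is cut by the membrane protease MT1-MMP. shPTK7 cells carried a short hairpin RNA that silences PTK7, and 3 clones were pooled to make them. PTK7 cells expressed the full-length membrane protein with a FLAG tag. Chz cells expressed the Chuzhoi mutant, which has an additional MT1-MMP cleavage site, and sPTK7 cells expressed the soluble ectodomain with a FLAG tag. cPTK7/622-1070 cells expressed the membrane-anchored C-terminal piece left by MT1-MMP, and cPTK7/726-1070 cells expressed a cytoplasmic C-terminal piece with a V5-HIS tag. The control array, called HT1080 below, came from cells that the records label scrambled control and the methods call parental. All lines were plated alike and grown for 72 h. Because each line was 1 culture on 1 array, the differences have no replicate check and no p value is given, and a clonal difference between lines cannot be told apart from an effect of the construct.

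Between 19045 and 20515 probes were detected per array. The PTK7 probe with the higher mean signal read 4.79 in shPTK7, 6.81 in PTK7, 7.10 in Chz, 4.92 in sPTK7, 5.29 in cPTK7/622-1070, 5.04 in cPTK7/726-1070 and 6.71 in HT1080 cells on the log2 scale. It was detected in PTK7, Chz and HT1080 cells only, and PTK7 cells read close to HT1080 cells. The other PTK7 probe was detected in Chz (6.11) and HT1080 cells (5.84) only. It read 5.28 in PTK7 and 5.62 in shPTK7 cells and was undetected in both, so it did not separate these 2 lines. By both probes the sPTK7 line and both C-terminal lines were undetected, as shPTK7 cells were, although HT1080 cells without a PTK7 construct had a detected signal. The reason was not tested, and which constructs each probe can read is not known. Of 8 mesenchymal markers, 5 to 8 were detected in each line and all 8 in HT1080 cells. Of 9 epithelial markers 2 or 3 were detected per array, and of 5 leukocyte markers with a probe at most 2. The epithelial markers KRT8 and KRT18 were detected on all 7 arrays, at median log2 signals of 11.18 and 9.07. The leukocyte markers CD14 and LYZ were detected on 6 arrays each, and the mesenchymal marker COL1A1 on 2. The summed mesenchymal signal was lowest in PTK7 cells at 98405, against 137960 in HT1080 cells, and the part of this difference in the S100 values was not tested.

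S100 proteins are small EF-hand proteins that mostly act as dimers. On binding calcium they expose a surface that holds target proteins such as annexins, nonmuscle myosin and p53, and several of them are also released from cells and bind receptors such as AGER. Most S100 genes lie in a cluster in the epidermal differentiation region of chromosome 1. S100A4, known as metastasin, is a marker of motile fibroblasts and of invasive tumors. In the RefSeq annotation of GRCh38.p14 the chromosome 1 members stand in the order S100A10, S100A11, S100A6, S100A4, S100A3, S100A2, S100A16 and S100A13, with S100A4, S100A3 and S100A2 next to each other and other S100 genes elsewhere between them. S100P lies on chromosome 4.

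By the probe that stands for the gene, S100A4, S100A2 and S100A3 were detected on all 7 arrays and spanned at least 1 log2 unit, and S100P was detected on 3 arrays only. The promoters of these 4 genes are shown because the first 3 are neighbors whose lowest signals were in different lines, because S100P was the member not detected on all arrays, and because their short motifs differ. Each window is the 250 bases before the first listed RefSeq start in GRCh38.p14, written 5′ to 3′ on the gene's strand. Capitals mark a TATA box (TATAAA), a GC box (GGGCGG) or an AP-1 motif (TGANTCA), searched on both strands.
S100A4, chr1:153545807-153546056, minus strand: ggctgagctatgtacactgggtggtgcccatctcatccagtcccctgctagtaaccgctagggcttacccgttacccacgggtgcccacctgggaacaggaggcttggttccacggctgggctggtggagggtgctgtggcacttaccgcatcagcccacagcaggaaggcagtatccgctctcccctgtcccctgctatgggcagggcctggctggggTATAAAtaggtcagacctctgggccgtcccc
S100A3, chr1:153549259-153549508, minus strand: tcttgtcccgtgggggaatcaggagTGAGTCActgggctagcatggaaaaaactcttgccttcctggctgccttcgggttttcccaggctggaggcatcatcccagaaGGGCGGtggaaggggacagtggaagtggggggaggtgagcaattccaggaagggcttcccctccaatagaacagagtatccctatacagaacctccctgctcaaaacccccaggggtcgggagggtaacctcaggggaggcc
S100A2, chr1:153565845-153566094, minus strand: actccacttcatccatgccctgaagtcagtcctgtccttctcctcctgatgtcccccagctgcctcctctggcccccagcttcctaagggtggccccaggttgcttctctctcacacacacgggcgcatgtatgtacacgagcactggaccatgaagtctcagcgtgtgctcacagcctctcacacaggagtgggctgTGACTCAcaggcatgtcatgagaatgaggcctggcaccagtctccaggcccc
S100P, chr4:6693628-6693877, plus strand: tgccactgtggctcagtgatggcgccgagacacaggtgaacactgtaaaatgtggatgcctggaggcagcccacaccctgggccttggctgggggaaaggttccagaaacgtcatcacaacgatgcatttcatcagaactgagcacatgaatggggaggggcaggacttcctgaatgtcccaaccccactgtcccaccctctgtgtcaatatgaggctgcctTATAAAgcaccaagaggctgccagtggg
TATAAA began 31 bases before the start of S100A4 and 28 bases before that of S100P, and 10.7% of 35116 RefSeq promoter windows of this length held it. TGANTCA stood 52 bases before the first S100A2 start and 225 bases before the S100A3 start, and 6.57% of the windows held it. GGGCGG stood 142 bases before the S100A3 start, and 42.6% of the windows held it. The windows of S100A6, S100A10 and S100A11, as well as a window each of S100A13 and S100A16, also held GGGCGG, with 3 copies in S100A6, 2 of them overlapping. Another S100A13 window held TATAAA, 29 bases before its start. The CRE motif TGACGTCA, held by 1.65% of the windows, was in no member window. These matches describe the letters only. The deposited files hold no binding data for these promoters.

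Signals are given on the log2 scale after background correction and quantile normalization, and the probe brightest on average stands for its gene. Called genes are those at least 2-fold above or below HT1080 cells whose brighter array had a detection p under 0.05. In shPTK7 cells 2 of the 9 members were called, S100A4 and S100A3, both lower, while 2.77% of 13589 detected genes were called in either direction and 1.58% were called lower. In PTK7 cells S100A4 was the 1 member called, beside 5.98% of genes (3.51% lower). In Chz cells it was again S100A4, beside 3.79% of genes (1.77% lower). In sPTK7 cells it was S100A2, beside 3.68% of genes (1.84% lower). No member was called in cPTK7/622-1070 cells, where 1.44% of genes were (0.751% lower), or in cPTK7/726-1070 cells, where 3.05% were (1.55% lower). All 5 called values were lower than in HT1080 cells, and with 9 members a single gene makes 11.1% of the list, so these counts can be read only gene by gene.

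**Figure D1:**
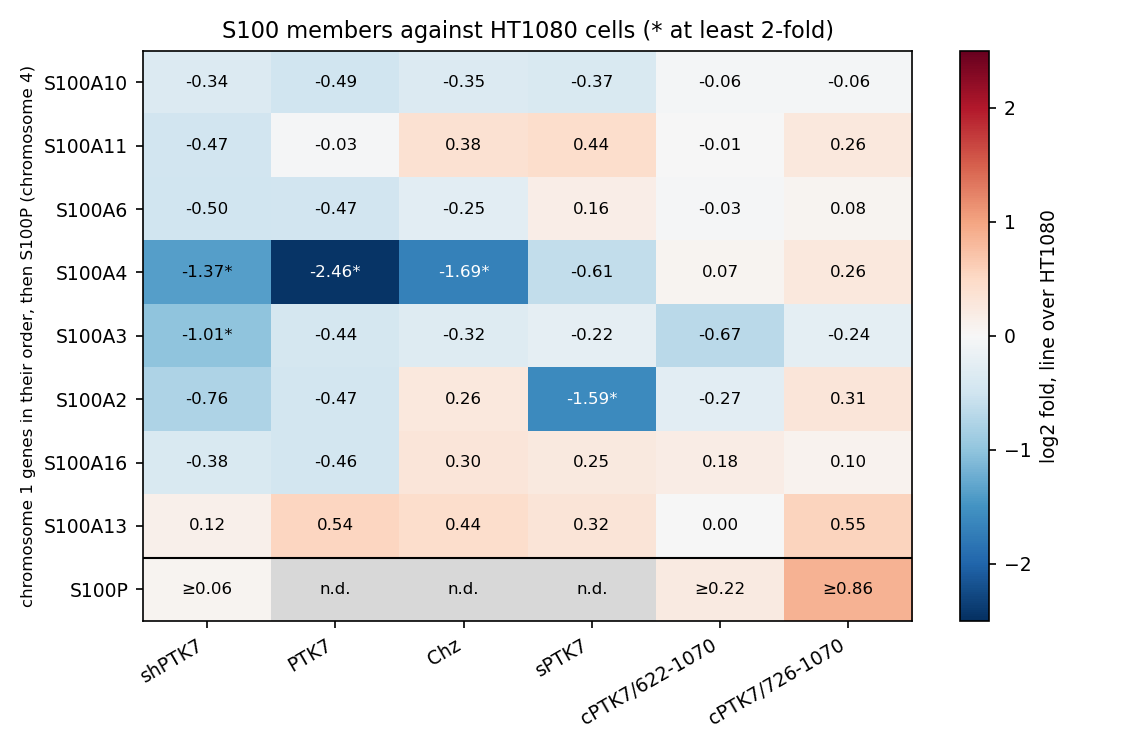
Log2 fold of each S100 member (rows, chromosome 1 genes in their order and S100P last) in each line (columns) against HT1080 cells, with 1 array per line. Asterisks mark differences of at least 2-fold, n.d. marks S100P where neither array detected it and the ≥ sign marks a lower bound. The darkest cells are S100A4 in PTK7 cells (-2.46), S100A4 in Chz cells (-1.69) and S100A2 in sPTK7 cells (-1.59).

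S100A4 binds the heavy chain of nonmuscle myosin IIA and loosens its filaments. The mean bead signal of its brighter probe, ILMN_1684306, was 489 in shPTK7, 281 in PTK7, 443 in Chz, 637 in sPTK7, 1070 in cPTK7/622-1070, 984 in cPTK7/726-1070 and 988 in HT1080 cells before normalization. The signal was thus low in the lines with the hairpin, the full-length protein, the Chuzhoi mutant and the ectodomain, and near the HT1080 level in both C-terminal lines. After normalization the log2 signals were 8.33, 7.25, 8.01, 9.09, 9.78, 9.96 and 9.70 in the same order. S100A4 was 5.48-fold lower in PTK7 cells (log2 -2.46), 3.23-fold lower in Chz cells (log2 -1.69) and 2.59-fold lower in shPTK7 cells (log2 -1.37) than in HT1080 cells. In sPTK7 cells the log2 difference was -0.61, in cPTK7/622-1070 cells it was 0.07 and in cPTK7/726-1070 cells 0.26. The size of the PTK7 difference depended on the processing, at 3.31-fold in the authors' normalized table, 3.33-fold without background correction and 3.58-fold against the median of the 7 arrays. Against that median S100A4 was 2.11-fold lower in Chz cells and 1.69-fold lower in shPTK7 cells, which is short of the cutoff. In RNA from whole cultures, fewer cells with S100A4 RNA and less of it per cell cannot be told apart.

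The other S100A4 probe, ILMN_1688780, gave a raw signal of 480 in shPTK7, 361 in PTK7, 324 in Chz, 364 in sPTK7, 909 in cPTK7/622-1070, 623 in cPTK7/726-1070 and 721 in HT1080 cells. It too was low in the first 4 lines and not in the C-terminal lines, but it was lowest in Chz cells rather than in PTK7 cells. Its log2 differences from HT1080 cells were -0.88 in shPTK7, -1.25 in PTK7, -1.85 in Chz, -1.23 in sPTK7, 0.34 in cPTK7/622-1070 and -0.01 in cPTK7/726-1070 cells. By this probe S100A4 was 2.35-fold lower in sPTK7 cells and 1.83-fold lower in shPTK7 cells, so these 2 lines fell on opposite sides of the 2-fold cutoff under the 2 probes. PTK7 and Chz cells were past it by both probes. The probes differed by 1.21 log2 units in the size of the PTK7 difference and by 0.62 in that of sPTK7, while over 2395 genes with several probes detected on all arrays the median gap in PTK7 cells was 0.22 and the 90th percentile 0.67, and in sPTK7 cells 0.20 and 0.58. Which of the S100A4 transcripts each probe reads was not tested.

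**Figure D2:**
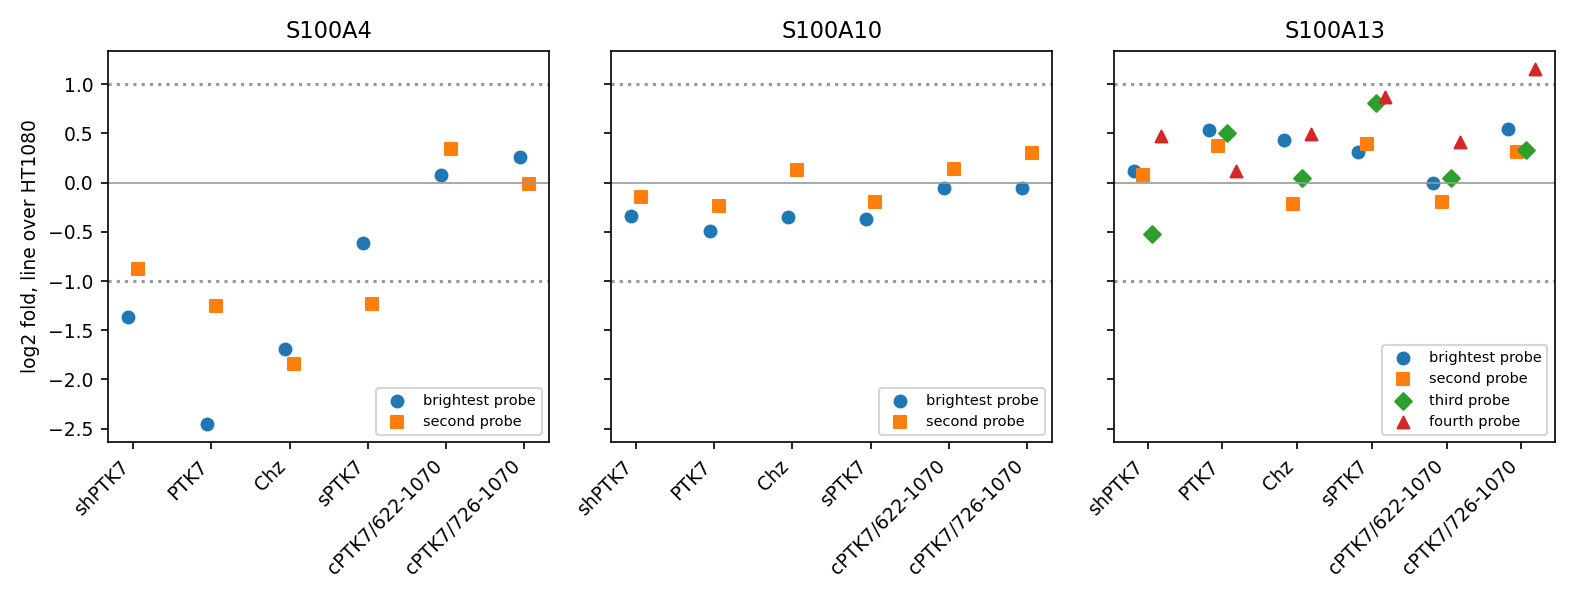
Log2 fold against HT1080 cells (vertical axis) in each line (horizontal axis) by each probe detected on all 7 arrays, for the 3 S100 genes with several such probes. Dotted lines mark 2-fold. Both S100A4 probes are below the lower line in PTK7 and Chz cells, and in sPTK7 cells the second probe (-1.23) is below it and the brightest (-0.61) is not.

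The widest spans of the family were those of S100A4, at 2.72 log2 units for the brighter probe and 2.19 for the other. Of 9552 genes detected on all 7 arrays, 0.984% spanned more than the first and 2.18% more than the second.

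S100A2 is best known from basal epithelial cells, where it binds p53 in the nucleus. Its raw signal was 1226 in shPTK7, 1290 in PTK7, 2516 in Chz, 660 in sPTK7, 1632 in cPTK7/622-1070, 1983 in cPTK7/726-1070 and 1863 in HT1080 cells. One line stood out, sPTK7, which had the lowest signal. S100A2 was 3.0-fold lower in sPTK7 cells (log2 9.15) than in HT1080 cells (log2 10.74). shPTK7 cells, at log2 9.98, were the next lowest and 1.70-fold below HT1080 cells, short of the cutoff. Chz (10.99) and cPTK7/726-1070 cells (11.04) had the highest log2 signals. The order of the lines was therefore not that of S100A4, with Chz cells among the lowest for S100A4 and among the highest for S100A2. The span of S100A2 was 1.89, wider than that of all but 3.58% of genes.

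S100A3, which binds zinc as well as calcium and is abundant in the hair cuticle, was below HT1080 cells in all 6 lines. Its raw signal was 665 in shPTK7, 804 in PTK7, 1053 in Chz, 894 in sPTK7, 782 in cPTK7/622-1070, 841 in cPTK7/726-1070 and 1125 in HT1080 cells. Only the shPTK7 value reached the cutoff, at 2.01-fold lower (log2 8.92 in shPTK7 cells, 9.92 in HT1080 cells), and it stood at the cutoff itself. Of 10 other ways of processing, 5 left it below 2-fold. Of the 5 that kept the call, only scaling to the 75th percentile (log2 difference -1.02) could change the value. The rest concern undetected signals or the choice of probe, and S100A3 has 1 probe, detected on both arrays. The next lowest line was cPTK7/622-1070, with a log2 difference of -0.67, and the other 4 lines were between -0.44 and -0.22. Because each of these differences was taken from the same HT1080 array, their shared sign is also a statement about that array. The span of 1.01 was exceeded by 27.0% of genes.

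S100P binds ezrin inside the cell and AGER outside it, and is expressed in placenta and many carcinomas. Its probe was near background throughout. It was detected in shPTK7 (raw signal 201, detection p 0.031), cPTK7/622-1070 (213, p 0.035) and cPTK7/726-1070 cells (227, p 0.0039). It was not detected in PTK7 (171, p 0.24), Chz (123, p 0.97), sPTK7 (130, p 0.86) or HT1080 cells (135, p 0.86). The detection p counts how many negative control probes of the same array were at least as bright, as a share of all of them (770, by the step of these p values). With HT1080 set to the lowest detected signal of its array, S100P was at least 1.82-fold higher in cPTK7/726-1070 cells, at least 1.16-fold in cPTK7/622-1070 cells and at least 1.04-fold in shPTK7 cells. None of these bounds reached 2-fold, and in PTK7, Chz and sPTK7 cells no fold could be given. With detection set at a p under 0.01, the bound in cPTK7/726-1070 cells was 1.17-fold and no other line had one.

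**Figure D3:**
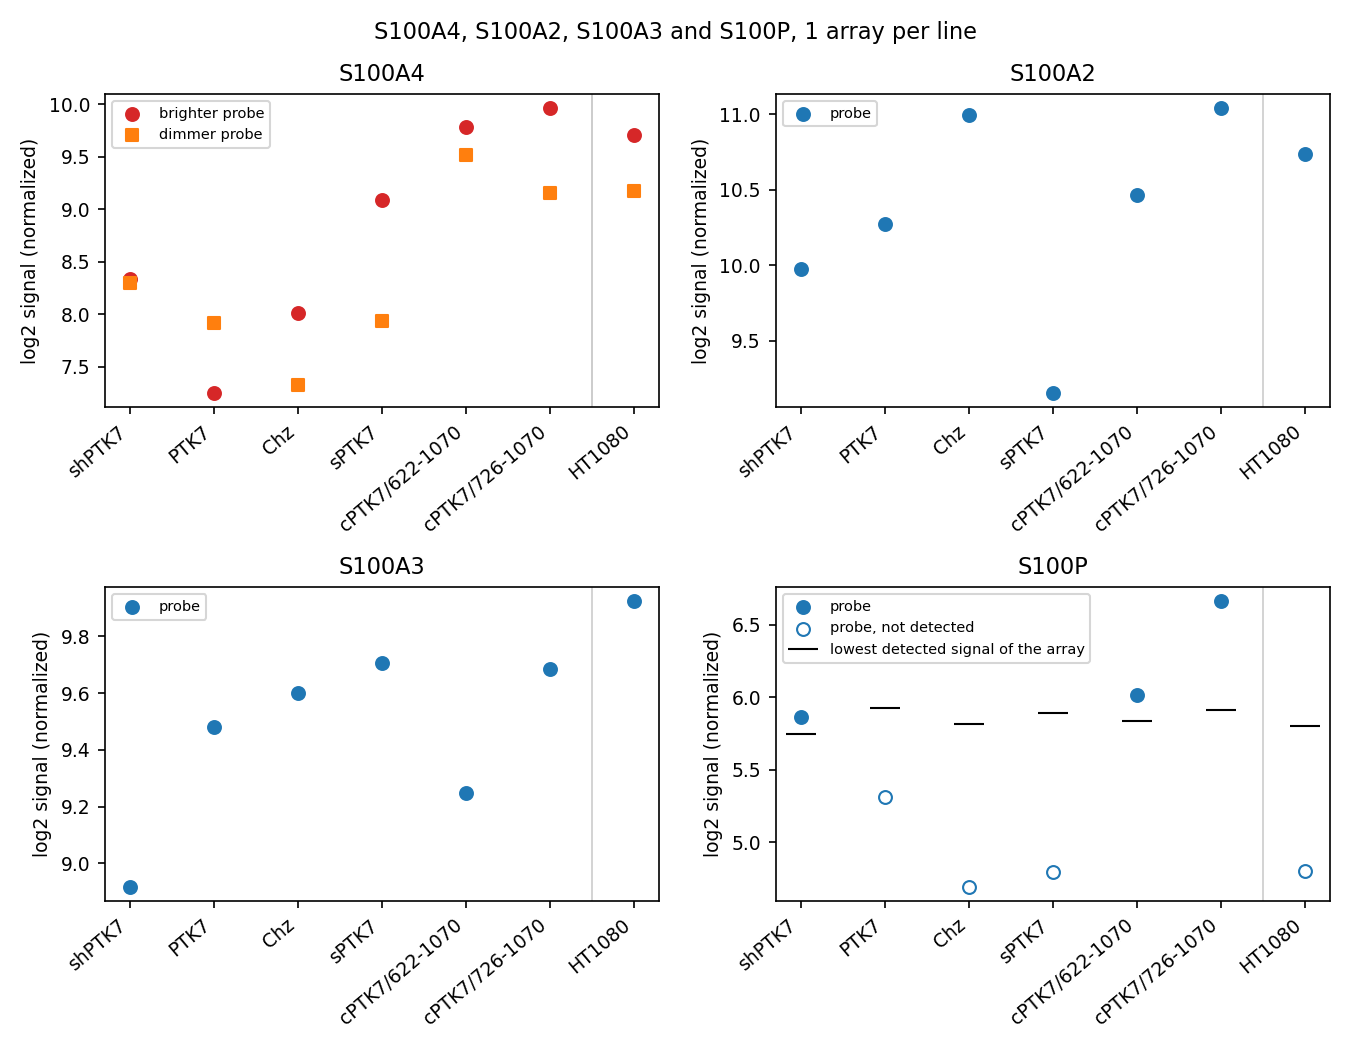
Normalized log2 signal (vertical axes, each with its own range) of S100A4, S100A2, S100A3 and S100P on the array of each line, with HT1080 at the right. Each point is 1 array and open points were not detected. S100A4 is low in shPTK7, PTK7, Chz and, by its dimmer probe, sPTK7 cells, S100A2 is lowest in sPTK7 cells (9.15) and S100A3 in shPTK7 cells (8.92).

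The remaining 5 members, S100A6, S100A10, S100A11, S100A13 and S100A16, were detected on all arrays by the probe that stands for the gene, and none differed by 1.5-fold from HT1080 cells in any line by that probe. S100A6, or calcyclin, a ligand of the ubiquitin ligase adaptor CACYBP, had log2 signals of 13.89 in shPTK7, 13.91 in PTK7, 14.13 in Chz, 14.55 in sPTK7, 14.36 in cPTK7/622-1070, 14.47 in cPTK7/726-1070 and 14.39 in HT1080 cells. Its lowest values were thus in shPTK7 and PTK7 cells, with log2 differences of -0.50 and -0.47. Its span of 0.67 was exceeded by 60.3% of genes.

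S100A10 is locked in an active form without calcium and joins annexin A2 at the membrane, where the pair binds plasminogen. Its brighter probe read 14.95 in shPTK7, 14.81 in PTK7, 14.95 in Chz, 14.92 in sPTK7, 15.24 in cPTK7/622-1070, 15.24 in cPTK7/726-1070 and 15.30 in HT1080 cells. The first 4 lines were lower by 0.34 to 0.49 log2 units and both C-terminal lines by 0.06. The second probe had differences of -0.15 in shPTK7, -0.23 in PTK7, 0.13 in Chz, -0.19 in sPTK7, 0.14 in cPTK7/622-1070 and 0.30 in cPTK7/726-1070 cells, so the sign in Chz and both C-terminal lines depended on the probe. The span of the brighter probe was 0.49, and 81.4% of genes spanned more.

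S100A11 binds annexin A1 and works in membrane repair and growth control. Its raw signal was 2489 in shPTK7, 2967 in PTK7, 4733 in Chz, 3828 in sPTK7, 3257 in cPTK7/622-1070, 3381 in cPTK7/726-1070 and 3225 in HT1080 cells. After normalization it was lowest in shPTK7 cells (log2 difference -0.47) and highest in sPTK7 (0.44) and Chz cells (0.38). S100A16, a broadly expressed member with a weak calcium response, had log2 signals of 12.88 in shPTK7, 12.80 in PTK7, 13.56 in Chz, 13.50 in sPTK7, 13.44 in cPTK7/622-1070, 13.35 in cPTK7/726-1070 and 13.26 in HT1080 cells. It was below HT1080 only in shPTK7 and PTK7 cells, by 0.38 and 0.46. The spans were 0.90 for S100A11 and 0.75 for S100A16, and 34.9% of genes spanned more than S100A11.

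S100A13 carries FGF1 and IL1A out of the cell by the route that bypasses the Golgi. By the probe that stands for the gene, it was the 1 chromosome 1 member not below HT1080 cells by more than 0.01 log2 units in any line. That probe read 12.03 in shPTK7, 12.45 in PTK7, 12.35 in Chz, 12.23 in sPTK7, 11.91 in cPTK7/622-1070, 12.46 in cPTK7/726-1070 and 11.91 in HT1080 cells. The second brightest probe, ILMN_2407168, had log2 differences of -0.22 in Chz and -0.20 in cPTK7/622-1070 cells and was above HT1080 cells in the other lines. Of its 6 probes, 4 were detected on all arrays and they did not move together. The largest difference was that of ILMN_1667138, a dimmer probe, which was 2.23-fold higher in cPTK7/726-1070 cells (log2 8.69) than in HT1080 cells (log2 7.53), while the other 3 had log2 differences of 0.31 to 0.55 there. The 4 probes lay up to 1.00 log2 units apart in shPTK7 cells, where one of them, ILMN_1814799, was lower by 0.52.

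By sign alone, 7 of 9 members were below HT1080 cells in shPTK7 cells and 7 of the 8 that could be given in PTK7 cells, where 48.1% and 49.3% of the genes detected on either array were lower. The median log2 fold of the members was -0.47 in shPTK7 and -0.46 in PTK7 cells, against 0.01 over the genes detected on either array in each. In Chz and sPTK7 cells the members were split, with 4 of 8 lower in each. In cPTK7/622-1070 cells 6 of 9 were lower with a median of -0.01. In cPTK7/726-1070 cells 2 of 9 were lower, S100A3 and S100A10, with a median of 0.26 (0.00 over the genes detected on either array). Most of these differences were small. Past 1.5-fold were S100A2, S100A3 and S100A4 in shPTK7 cells, beside 12.9% of genes, and S100A4 alone in PTK7 and Chz cells, beside 20.9% and 16.8% of genes. In sPTK7 cells they were S100A2 and S100A4 (13.5% of genes), in cPTK7/622-1070 cells S100A3 (9.01%) and in cPTK7/726-1070 cells S100P (14.3%). Some small differences depended on the normalization. With scaling to the 75th percentile, S100A10 in cPTK7/726-1070 cells (0.19) and S100A11 in PTK7 cells (0.02) were above HT1080 cells. S100A10 was then -0.19 in PTK7 cells, a smaller difference, and -0.42 in shPTK7 cells, a larger one. The 6 comparisons share the HT1080 array. The members were also chosen with earlier results of these data known, so these counts and medians are no independent evidence of a shift of the family.

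**Figure D4:**
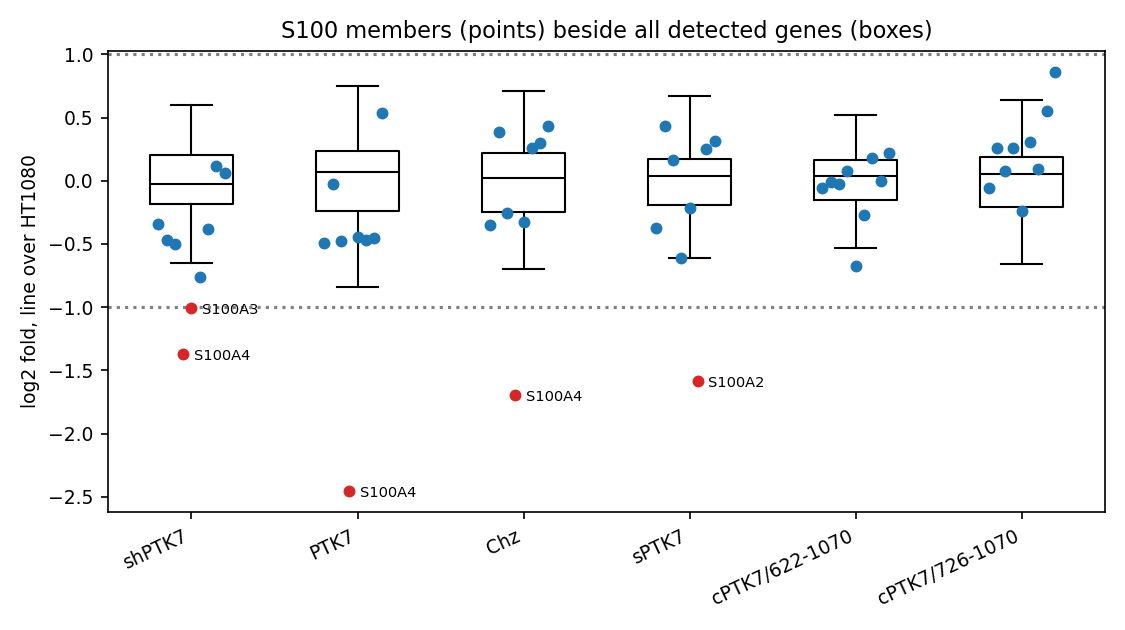
Log2 fold against HT1080 cells (vertical axis) in each line (horizontal axis), where points are the S100 members and red points those called. Boxes show the quartiles and whiskers the 5th to 95th percentile of all genes that any array detected, and dotted lines mark 2-fold. S100A4 in PTK7 cells, at -2.46, is the farthest point, and in shPTK7 and PTK7 cells most members sit below the box median.

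Lines whose constructs differ by a named piece of PTK7 were also set against each other, which reuses the same arrays. PTK7 against shPTK7 cells sets more against less of the full-length protein, by the immunoblots of the paper. By RNA the brighter PTK7 probe was higher in PTK7 cells, and the other was undetected in both lines. The pair differed in 1 member, S100A4, which was 2.12-fold lower in PTK7 cells, while 7.25% of genes were called. The dimmer S100A4 probe gave 1.30-fold in the same direction. A dimmer S100A13 probe, ILMN_1814799, was 2.04-fold higher in PTK7 than in shPTK7 cells, while the probe that stands for the gene had a log2 difference of 0.42. Low S100A4 was therefore seen both with the hairpin and with the full-length construct, with the lower value in PTK7 cells.

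Chz against PTK7 cells, which differ by the added MT1-MMP site, had no member called beside 9.21% of genes. The brighter S100A4 probe was 1.70-fold higher in Chz cells and the dimmer one 1.51-fold lower, so the order of these lines is not settled for S100A4. S100A2 was 1.65-fold higher in Chz than in PTK7 cells and S100A16 had a log2 difference of 0.75.

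sPTK7 against PTK7 cells, the ectodomain against the full-length protein, differed in 2 members beside 6.9% of genes. S100A2 was 2.17-fold lower in sPTK7 cells. S100A4 was 3.58-fold higher in sPTK7 cells by the brighter probe but 1.01-fold higher by the dimmer one, so this call rests on 1 probe. cPTK7/622-1070 against PTK7 cells differed in S100A4, which was 5.77-fold higher in cPTK7/622-1070 cells by the brighter probe and 3.02-fold higher by the other, beside 6.94% of genes called. cPTK7/726-1070 against cPTK7/622-1070 cells had no member called beside 1.96% of genes, and the differences ran between -0.08 and 0.64 log2 units.

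Of 11 other S100 genes described, 4 were detected on at least 1 array and none was called in any line. S100A7L2, which was not among these 11, was detected in sPTK7 cells alone (p 0.048) and was not called. S100A14, detected on 6 arrays, ranged over log2 signals of 5.54 in PTK7 cells to 7.09 in cPTK7/726-1070 cells, with 6.45 in HT1080 cells. S100A1 was detected on 4 arrays, and S100A5 and S100A8 on 2 each. S100A7, S100A7A, S100A9, S100A12, S100B, S100G and S100Z were detected on none. Of the 7 S100-fused genes of the same chromosome region, which encode proteins of the epidermal barrier, FLG and TCHH were detected. FLG, the gene of filaggrin, was 2.23-fold higher in shPTK7 cells (log2 7.22) and 3.09-fold higher in Chz cells (log2 7.69) than in HT1080 cells (log2 6.06). The HT1080 signal of FLG was near background (detection p 0.021).

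Genes for S100 binding partners, receptors and exported cargo were described from a list of 30, of which 28 had a probe and 26 were detected. In shPTK7 cells 1 was called higher and 1 lower, in PTK7 cells 1 and 4, in Chz cells 2 and 1, in sPTK7 cells 2 and 0, and in both C-terminal lines none. These were 7.69% of the 26 genes in shPTK7, 19.2% in PTK7, 11.5% in Chz and 7.69% in sPTK7 cells, beside 2.77%, 5.98%, 3.79% and 3.68% of all genes in the same order, and with 26 genes they rest on 2 to 5 genes a line. The list was also set with earlier results of these data known, so shares above those of all genes cannot be read as an excess among partner genes. Over the listed genes the median log2 fold was -0.01 in shPTK7, -0.06 in PTK7, 0.09 in Chz and 0.17 in sPTK7 cells, beside -0.03, 0.07, 0.02 and 0.04 over all genes that any array detected. These medians keep genes undetected on both arrays compared, at the lowest detected signal of each array. The medians over genes given with the signs above leave such genes out. Among the cargo of S100A13, IL1A, the interleukin 1 alpha gene, was 4.19-fold higher in PTK7 cells (log2 8.27) and 10.7-fold higher in Chz cells (log2 9.62) than in HT1080 cells (log2 6.20). Its HT1080 signal was near background (detection p 0.014), which limits the size of these folds, and it was detected on 3 arrays. FGF1, a fibroblast growth factor without a signal peptide, was 2.76-fold lower in PTK7 cells (log2 6.83) and 2.12-fold higher in sPTK7 cells (log2 9.38) than in HT1080 cells (log2 8.30). The cargo genes thus differed between lines while S100A13 itself was not called.

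Of the myosin heavy chains, MYH9, which encodes the S100A4 partner nonmuscle myosin IIA, was 2.10-fold higher in sPTK7 cells (log2 14.70) than in HT1080 cells (log2 13.63), and MYH10, of myosin IIB, was 2.59-fold lower in Chz cells (log2 10.03) than in HT1080 cells (log2 11.40). EZR, which encodes the S100P partner ezrin, was 2.57-fold lower in PTK7 cells (log2 12.90) than in HT1080 cells (log2 14.27). MDM2, the p53 ubiquitin ligase, was 2.06-fold higher in shPTK7 cells (log2 7.44) than in HT1080 cells (log2 6.40, detection p 0.010). In sPTK7 cells S100A4 was past the cutoff by its dimmer probe and not by the brighter one.

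PLAT encodes tissue plasminogen activator, which works with the plasminogen that annexin A2 and S100A10 hold at the cell surface. It was 2.11-fold lower in shPTK7 cells (log2 8.14), 5.11-fold lower in PTK7 cells (log2 6.86) and 3.59-fold higher in Chz cells (log2 11.05) than in HT1080 cells (log2 9.21). ANXA2, the S100A10 partner, was not called in any line, with a log2 difference of -0.57 in PTK7 cells, and neither was ANXA1, the S100A11 partner, with -0.52 in PTK7 and 0.66 in Chz cells. TLR4, a receptor of released S100 proteins, was at least 2.70-fold lower in PTK7 cells, where it was not detected, than in HT1080 cells (log2 7.36).

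The genes whose log2 signal over the 7 arrays was most like that of S100A4, S100A2 and S100A3 were sought among 3777 genes detected on at least 4 arrays and spanning at least 1 log2 unit. For S100A4 they were PICK1 (Pearson r = 0.98), KLHL23 (0.97) and LINC01311 (0.96). For S100A2 they were SLC22A5 (0.92), MED9 (0.92) and TSPAN14 (0.91), all 3 lowest in sPTK7 cells. For S100A3 they were CXCL8 (0.94), H1-2 (0.93) and CCDC88C (0.92). None is given for S100P, which was detected on 3 arrays. With 7 arrays that share a chip and a normalization, and this many genes searched, high correlations are given as a description only.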

How the data were processed

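The deposited file holds 1 intensity per probe and array, a mean over beads that the authors read out with the BeadArray Reader and left without normalization. Beside it the authors deposited a detection p value, the share of negative control probes at least as bright. Their normalized table (intensities, BeadArray Reader and GeneSpring GX; the method of normalization is not given in the sources used here) served as an alternative.

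Background was removed in limma 3.58.1 (R 4.3.3) by a normal-exponential fit with an offset of 16 and the background taken from the detection p values. Intensities were then quantile normalized over the 7 arrays and put on the log2 scale. Undetected signals (p of 0.05 or more) were raised to the lowest detected signal of the array, so folds against them are lower bounds, and none is given where both arrays are undetected. Called means at least 2-fold with the brighter array detected. Welch's t test of the methods was not run, since 1 array per line allows no test. The number of arrays limits the precision.

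All 9 members were named with every probe, with the called genes of the lists of other S100, S100-fused and partner genes, and for each member spanning at least 1 log2 unit the 3 genes most like it (not given for S100P, whose span rests on undetected signals). The members and lists were chosen with earlier results of these data known. Probes were joined to genes through the platform annotation (30112 probes with 1 gene, 8 with several, 17110 with none) and gene tables updated their symbols. Promoters came from RefSeq and matched all 9 members. The background correction, normalization and 2-fold call were tested on simulated data, with folds set only in genes well above background. A total of 9 alternatives were planned and 1 was added after seeing the data. Tools were Python 3.11.15, numpy 2.4.6, pandas 2.3.3 and matplotlib 3.10.9.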

Additional observations from a re-analysis of the deposited data

How the results depend on the processing

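Of 540 values of single members under the alternatives, 525 stayed within 1.5-fold of the reported value, and none of the 5 called values turned its direction. Part of these values could not change. The settings of the floor and of the detection threshold leave a gene detected at a p under 0.01 on both arrays as it was. The settings of the probe leave a gene with 1 probe as it was. S100A4 in PTK7 cells (log2 -2.61 to -1.73) and in Chz cells (-1.85 to -1.08) and S100A2 in sPTK7 cells (-1.72 to -1.32) kept their call under all 10 alternatives. The floor and detection settings could not change these values, nor could the probe settings that of S100A2. S100A4 in shPTK7 cells kept its call under 9, and was 1.69-fold lower against the median of the 7 arrays. No alternative used the dimmer S100A4 probe alone in every line. That probe gave log2 -1.25 in PTK7, -1.85 in Chz and -0.88 in shPTK7 cells, the last of which was not called. S100A3 in shPTK7 cells kept its call under 5, of which only scaling to the 75th percentile (log2 -1.02) could change its value. It was 1.78-fold lower with no background correction and in the authors' normalized table, 1.94-fold with an offset of 50, 1.88-fold with no normalization between arrays and 1.61-fold against the median of the arrays. The count in shPTK7 cells was therefore 1 under each of these first 4 settings and 0 against the median of the arrays.

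With no floor under undetected signals S100P was 2.08-fold higher in shPTK7, 2.32-fold in cPTK7/622-1070 and 3.63-fold in cPTK7/726-1070 cells, which gave counts of 3, 1 and 1 in these lines. With detection at a p under 0.01 its bound in cPTK7/726-1070 cells was 1.17-fold. With any probe of a gene allowed to make the call, the count was 2 in sPTK7 cells, with S100A4 added, and 1 in cPTK7/726-1070 cells, with S100A13. The mean of the detected probes, chosen after seeing the data, changed no count by over 1.5 times.

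No paired analysis was possible because each line has 1 array and the labels give no replicate numbers. The differences between lines cannot be set against a spread between cultures. S100P is limited by its signal near background, and the S100A4 values by the gap between its 2 probes.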
